A study of Mus musculus with 12 samples.

Results

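Of the 16411 genes counted in mammary tumors and benign mammary tissue of MMTV-Neu-NDL-YD5 transgenic mice, 23 had almost no reads in any benign sample and were read in every tumor. The 23 were chosen by 2 limits on the raw counts, at most 12 counts over the 6 benign samples together and at least 10 counts in each of the 6 tumors. One further gene was set aside from the outset and is not described. The mice were females of the FVB background, heterozygous for the transgene, with no age given per sample, and benign tissue and tumors carried the same transgene, in which the mouse mammary tumor virus promoter drives an activated Neu (rat HER2) with the YD tyrosine site added back in mammary epithelium. The benign samples were mammary tissue with no visible tumor, taken far from a tumor, and they came from other mice than the tumors, so no sample had a partner in the other group. Each of the 12 samples was 1 library.

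Many of the 23 genes are best known from tissues other than the mammary gland, and 6 of them are in one of the 12 lists of tissue genes used here. Salivary and lacrimal glands secrete small proteins in bulk, the liver releases protease inhibitors into plasma, and neurons, cartilage and skin each carry their own channels, matrix proteins and keratins. Genes of this kind are held off in most adult cells by closed chromatin and by the absence of the factors that drive them, and they are often given as examples of tissue-restricted expression. HER2, the receptor tyrosine kinase that the transgene supplies, signals through the Ras/MAPK and PI3K pathways. Here the 23 were sorted by what their products do into exocrine gland secretion (4 genes), protease inhibitors and plasma proteins (3), nervous system and signalling (6), epithelial and matrix structure (4), embryo and placenta (2) and enzymes, transport and cilia (4). The pseudogene Itih5l-ps was placed among the protease inhibitors by its relatives.

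Totals per sample ran from 5240853 to 8588567 counts. CPM are counts scaled to library size after TMM scaling of the library size. Across the whole table, 28.2% of the 13191 genes that passed the low-count filter were called higher in tumors and 34.8% lower (edgeR quasi-likelihood test, adjusted p under 0.1). Luminal epithelial markers (17 genes) summed to between 1465 and 3403 CPM in benign tissue and between 4560 and 5907 CPM in tumors, 2.24 times as much on average. Abundant genes weigh most in this sum. Of the 17, 10 were called higher and 4 lower, with a median log2 fold change of 1.10. Adipocyte markers (10 genes) fell from at least 10080 CPM in every benign sample to at most 157 CPM in any tumor, and basal markers (9 genes) from at least 908 CPM to at most 134 CPM. In tumor 5, skeletal muscle markers summed to 155 CPM, against 1.20 to 9.45 CPM in the other tumors. They summed to between 17.97 and 92221 CPM in benign samples. Benign sample 1 held 822 CPM of T and NK cell markers, against at most 27.8 CPM in the other benign samples.

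The 23 genes together had 130 counts in all benign libraries, between 10 and 34 per library, and between 2438 and 10220 counts in each tumor. On the CPM scale their sum lay between 1.32 and 4.82 in benign tissue and between 335 and 1307 in tumors. "Silent" holds strictly for only 3 of them, A2m, Prol1 and Dsg1c, which had 0 counts in all benign samples. Another 16 never passed 3 counts in any benign sample, which is 19 of 23 in all, and the remaining 4 (B3galt5, Cyb5r2, Krt83 and Klk1b11) reached between 4 and 6 counts in one of them. Every tumor lay above every benign sample for all 23, against 14.7% of the tested genes. The limits themselves produced that separation, so it is a description and no test was made of it. The same holds for the calls, since 19 of the 23 passed the low-count filter and the 19 were called higher, while Itih5l-ps, B3galt5, Dcpp1 and Cfap70 did not pass it. Pooled over the samples, the tumor over benign ratio of the genes with a benign count ran from 7.89 to 2226. The limits allow no small ratio, since they ask for at least 60 tumor counts against at most 12 benign ones, and the part of the higher luminal markers in it was not tested. In bulk tissue, fewer cells of a type and less RNA per cell cannot be told apart.

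**Figure D1:**
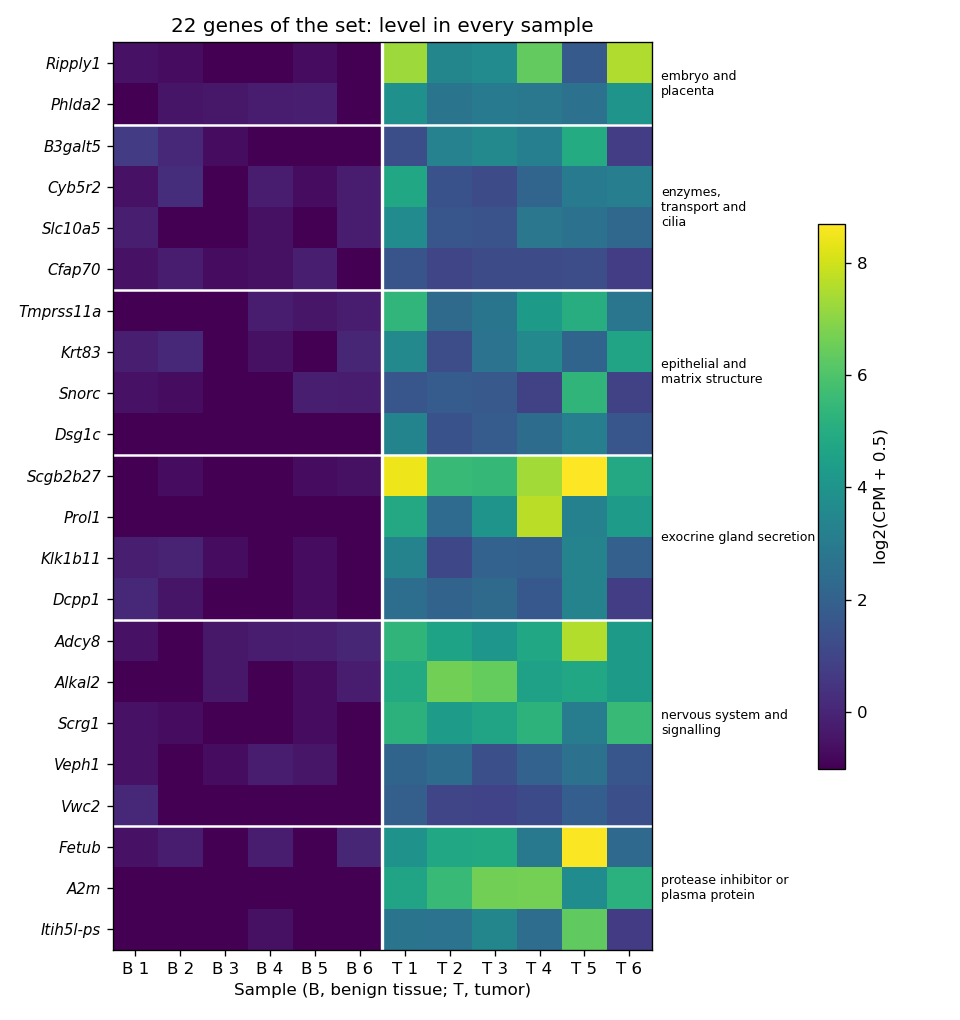
Level of 22 genes of the set (rows, grouped by what the product does) in the 6 benign samples (B) and the 6 tumors (T), as log2 of CPM + 0.5. The benign columns are dark throughout, and the bright cells of the tumor columns fall in different tumors for different genes, such as tumor 5 for Fetub and tumors 6 and 1 for Ripply1.

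Sequence just before the start site was read for the 15 genes of the set with an entry in the RefSeq promoter set for GRCm38.p6. These promoters were poor in CpG, the dinucleotide that is methylated in mammalian DNA and crowds together at the starts of broadly used genes. Over the 250 bases before and the 50 bases after the start, the set had a median of 5 CpG, against 18 over the 12911 promoters of genes in the table, and 9 of 15 (60.0%) had at most 5, against 17.1%. GC content had a median of 51.3% against 59.7%. A few promoters are printed 5′ to 3′ with each CpG in capitals, to set the highest genes of the secretory, plasma protein and embryo groups beside 2 CpG-rich ones, Phlda2 and Alkal2. Only the 250 bases before the start are shown.
Scgb2b27 (chr7:34013943-34014192, minus strand): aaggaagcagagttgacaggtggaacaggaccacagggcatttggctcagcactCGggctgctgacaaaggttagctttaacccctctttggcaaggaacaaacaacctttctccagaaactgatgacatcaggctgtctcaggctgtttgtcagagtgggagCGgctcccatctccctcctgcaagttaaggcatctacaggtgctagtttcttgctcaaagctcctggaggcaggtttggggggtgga
Prol1 (chr5:88317062-88317311, plus strand): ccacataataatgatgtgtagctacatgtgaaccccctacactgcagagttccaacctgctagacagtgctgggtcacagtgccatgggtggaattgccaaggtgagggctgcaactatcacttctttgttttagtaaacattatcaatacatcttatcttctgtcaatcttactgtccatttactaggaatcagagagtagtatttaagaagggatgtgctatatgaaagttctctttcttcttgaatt
Fetub (chr16:22918132-22918381, plus strand): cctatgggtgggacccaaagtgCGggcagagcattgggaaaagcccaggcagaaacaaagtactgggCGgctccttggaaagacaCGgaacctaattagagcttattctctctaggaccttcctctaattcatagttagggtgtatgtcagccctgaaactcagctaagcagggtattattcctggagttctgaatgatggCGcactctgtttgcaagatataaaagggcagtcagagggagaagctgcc
Ripply1 (chrX:139782354-139782603, minus strand): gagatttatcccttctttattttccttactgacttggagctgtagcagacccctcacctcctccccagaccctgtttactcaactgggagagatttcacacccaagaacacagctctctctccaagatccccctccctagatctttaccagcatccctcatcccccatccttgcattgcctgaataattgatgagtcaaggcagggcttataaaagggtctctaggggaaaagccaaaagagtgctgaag
Phlda2 (chr7:143502525-143502774, minus strand): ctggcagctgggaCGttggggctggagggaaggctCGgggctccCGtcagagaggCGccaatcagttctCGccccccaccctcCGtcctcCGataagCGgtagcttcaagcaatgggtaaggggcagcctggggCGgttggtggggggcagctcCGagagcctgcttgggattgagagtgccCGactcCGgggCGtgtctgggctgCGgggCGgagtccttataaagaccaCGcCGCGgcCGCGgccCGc
Alkal2 (chr12:30884074-30884323, plus strand): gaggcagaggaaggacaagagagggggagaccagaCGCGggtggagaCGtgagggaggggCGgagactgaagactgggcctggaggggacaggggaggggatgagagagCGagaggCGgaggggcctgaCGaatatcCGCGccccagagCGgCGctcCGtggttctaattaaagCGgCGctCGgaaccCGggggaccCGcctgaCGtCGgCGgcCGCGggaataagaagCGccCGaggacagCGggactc
Prol1 and Ripply1 had 0 CpG in the stretch shown, Scgb2b27 had 2 and Fetub 4, while Phlda2 had 21 and Alkal2 25. The TATA box, TATAAA searched on both strands over the 300 bases, was present in 4 of the 15 promoters (26.7%), against 8.73% of all. It began 31 bases before the start in Fetub, 30 in Phlda2 and 42 in Ripply1. The GC box GGGCGG was in 3 (20% against 58.6%) and the ETS core CCGGAA in 0, against 24.1% of all promoters. Both motifs contain a CpG, so these shares are not separate from the low CpG count of the set. The part of the CpG count in them was not tested. Ripply1 was the single promoter with an AP-1 site, TGANTCA (6.67% against 5.84%), farther from the start than its TATA box. The STAT motif TTCNNNGAA was in 2 (13.3% against 7.03%) and the steroid receptor element AGAACA in 1 (6.67% against 13.5%). These matches are descriptions of letters in a window, and they were not tested.

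Scgb2b27 was the most abundant of the 23. It encodes a secretoglobin, one of the small disulfide-linked proteins that exocrine glands release into saliva, tears and other fluids, and lies on chromosome 7 at 34011921 to 34013942 (GRCm38, minus strand). Benign samples 2, 5 and 6 had 1 count each and the others 0. The tumors ranged from 260 counts in tumor 6 to 3218 in tumor 5, with a median of 782, a mean of 173 ± 168 CPM (SD, n = 6). The pooled ratio was 2226 (95% counting interval 761 to 10794). Tumors 1, 4 and 5 stood high, with 1205 counts or more, and tumors 2, 3 and 6 low, with 358 or fewer. The groups did not overlap, with 260 counts in the lowest tumor and 1 in the highest benign sample. Per kilobase of exon it reached 110 CPM, ahead of Ripply1 at 90.7.

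Prol1 encodes a proline-rich protein of lacrimal and salivary glands and is on chromosome 5 (88317312 to 88328814, plus strand). No benign library had a read of it. Its tumor counts ran from 34 in tumor 2 over a median of 154 to 1537 in tumor 4, so that tumor 4 alone held 72.9% of the CPM summed over the tumors. The mean was 47.5 ± 78.8 CPM (SD, n = 6), or 15.5 CPM without tumor 4. Set against a floor of 3 counts over the whole benign group, 0.0739 CPM, the tumor mean was at least 642-fold higher. Klk1b11, a glandular kallikrein of the submandibular gland, was lower, at 12 counts in tumor 2, a median of 30.5 and 75 in tumor 5, with 8 benign counts in all. Dcpp1, a demilune cell and parotid protein of the sublingual gland, had 11 counts in tumor 6, a median of 30 and 75 in tumor 5, with 6 benign counts. Both belong to families of near-identical neighbours, so the estimated counts may be split among copies, and their level is less certain than that of Prol1.

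A2m encodes alpha-2-macroglobulin, a large plasma protein that traps proteases, and is on chromosome 6 (121635376 to 121679227, plus strand). All 6 benign libraries had 0 counts. In tumors its counts ran from 98 in tumor 5 to 814 in tumor 3, with a median of 330 and a mean of 52.9 ± 37.7 CPM (SD, n = 6), which is at least 716-fold above the floor. Tumors 3 and 4 were high and tumors 1 and 5 low, and the range between tumors was 8.05-fold. Fetub, the fetuin B that the liver secretes and that inhibits an egg-coat protease, was highest where A2m was lowest. It had 3104 counts in tumor 5 and 239 or fewer in every other tumor, with 41 in tumor 6 and a median of 148, and its benign samples had 9 counts in all. Tumor 5 carried 82.8% of its summed CPM, and the mean fell from 79.9 CPM to 16.5 CPM when tumor 5 was left out. Itih5l-ps, an unprocessed pseudogene related to the inter-alpha-trypsin inhibitor heavy chains, likewise had 624 counts in tumor 5, 10 in tumor 6 and a median of 41, over 1 benign count. Of the 3 genes of this group, Fetub and the pseudogene Itih5l-ps were highest in tumor 5, while A2m was lowest there.

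Ripply1, a co-repressor that sets somite boundaries in the embryo, lies on the X chromosome (139779549 to 139782353, minus strand). Benign samples 1, 2 and 5 had 1 count each. The tumors spread from 22 counts in tumor 5 to 1664 in tumor 6, with a median of 350 and a mean of 73.5 ± 78.6 CPM (SD, n = 6). Tumors 6, 1 and 4 had 598 counts or more, and tumors 2, 3 and 5 had 102 or fewer. The ratio of the pooled levels was 1005 (95% counting interval 344 to 4875). Phlda2, an imprinted gene that restrains growth of the placenta, varied less (CV 47.3%), from 44 counts in tumors 2 and 5 to 144 in tumor 6 (median 56.5, 9 benign counts). Tumors 6 and 1 were the highest for Phlda2, as for Ripply1. Tumor 5, the lowest for Ripply1, tied with tumor 2 in Phlda2 counts and was lower only after scaling (5.63 against 6.05 CPM).

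Among the 6 genes of nervous system and signalling, Adcy8 had the highest mean, 53.1 ± 68.4 CPM (SD, n = 6). It encodes a calcium-stimulated adenylyl cyclase of the brain. Its counts were 1500 in tumor 5 and between 138 and 256 in the other tumors, with a median of 188, against 11 counts over benign tissue. Alkal2, the ligand of the receptor tyrosine kinases ALK and LTK, was highest in tumor 2 (721 counts) and tumor 3 (696), and the other tumors lay between 167 and 209, with 5 counts over benign tissue. Its mean was 46.9 ± 35.1 CPM and the pooled ratio 378 (95% counting interval 162 to 1166). Of its receptors, Alk had 1 count over all tumors together and Ltk did not pass the test (log2 fold change 0.38 ± 0.43 SE, adjusted p = 0.48, edgeR). Scrg1, a secreted peptide first described in scrapie-infected brain and also made in cartilage, ranged from 62 counts in tumor 5 to 412 in tumor 6, a CV of 48.3%.

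Veph1 and Vwc2 of that group were the lowest and among the steadiest. Veph1, a pleckstrin-homology protein known from the developing nervous system, had between 17 counts in tumor 3 and 44 in tumor 5 (median 26, CV 35.9%). Vwc2, a secreted inhibitor of bone morphogenetic proteins, had between 11 counts in tumor 2 and 25 in tumor 5 (median 16, CV 37.2%). Counting error alone would give a CV of 18.8% for Veph1 and 24.5% for Vwc2, so part of the spread of these genes lies below what the depth resolves.

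Genes of epithelial and matrix structure came next in level. Tmprss11a, an airway and skin type membrane serine protease, had 266 counts in tumor 1, 254 in tumor 5 and 33 in tumor 2 (median 99.5, 6 benign counts). Krt83, a hair keratin, was highest in tumor 6 with 228 counts and lowest in tumor 2 with 14 (median 61, 11 benign counts). Snorc, a proteoglycan of cartilage, had 309 counts in tumor 5 and between 10 and 23 elsewhere, with a median of 19, so its presence outside tumor 5 rests on few reads. Its mean of 8.41 CPM became 2.19 CPM without tumor 5. Dsg1c, a desmosomal cadherin of the epidermis, had 0 benign counts and between 16 counts in tumor 2 and 66 in tumor 5 (median 30.5), at least 69.9-fold above the floor.

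The remaining 4 were enzymes, a transporter and a ciliary gene. B3galt5, a galactosyltransferase that builds type 1 glycan chains in gut and other epithelia, had 237 counts in tumor 5, 11 in tumor 6, 13 in tumor 1 and a median of 65.5. Its benign samples 1 and 2 held 11 of its 12 benign counts. Cyb5r2, a cytochrome b5 reductase, was highest in tumor 1 with 178 counts and lowest in tumor 3 with 15 (median 43, 12 benign counts). Slc10a5, a member of the bile acid transporter family made in liver and kidney, had 78 counts in tumor 1, 18 in tumor 2 and a median of 42. Cfap70, a component of motile cilia, was near the limit in every tumor, at 11 to 15 counts, and its CV of 21.6% was below the 27.4% that counting error alone gives. Its pooled ratio, 7.89 (95% counting interval 3.96 to 17.9), was the smallest of the set.

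**Figure D2:**
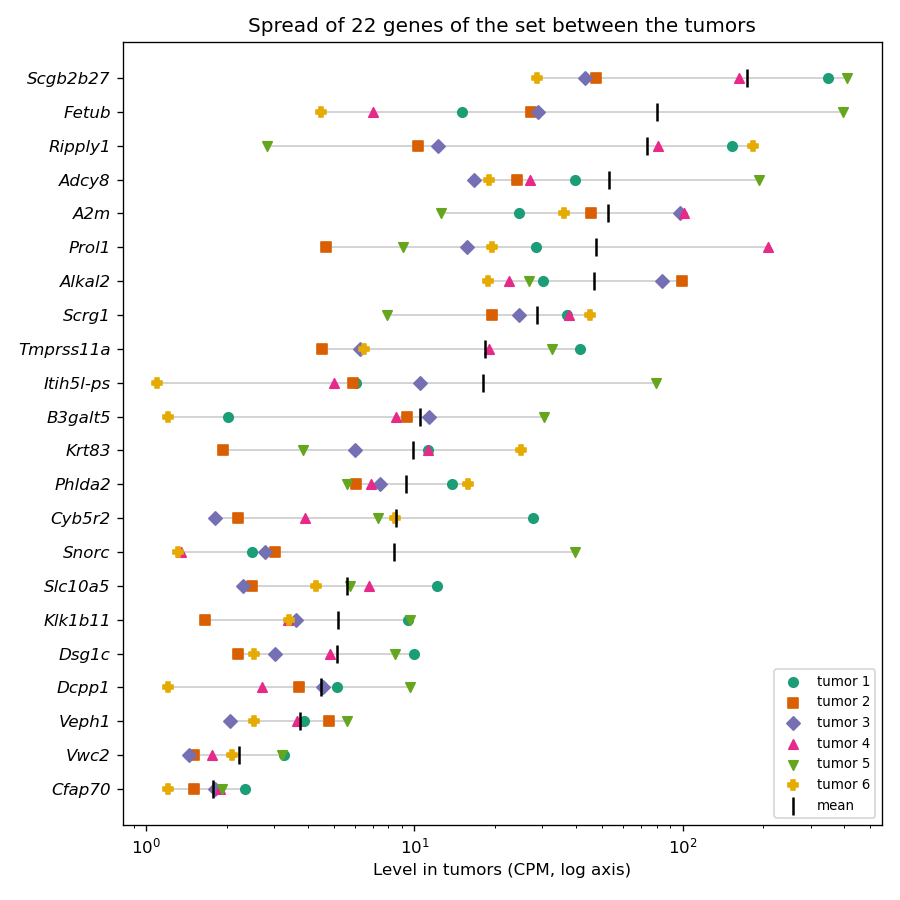
Level of 22 genes of the set in the 6 tumors (CPM, log axis), 1 symbol per tumor, with a bar at the mean and genes ordered by it. Tumor 5 is the rightmost symbol for 9 genes, and Itih5l-ps, Fetub and Ripply1 span the widest ranges.

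The genes were not on to a like degree in all tumors. The CV between tumors had a median of 84.5% over the 23, from 21.6% for Cfap70 to 195% for Fetub. Over the 11765 genes with at least 10 counts in each tumor the median was 18.8%, and over the 10741 of them within the range of mean levels of the set it was 18.9%. A CV above 100% was found for 9 of the 23, against 108 of the 11765 (0.918%). The highest tumor was at least 10 times the lowest for 11 of the 23, against 1.97% of the 11765, and the median ratio was 9.12 against 1.65. In 7 of the 23, a single tumor held more than 50 percent of the CPM summed over tumors, a share not determined for the 11765. These are descriptions of a set chosen on counts of the same libraries, and they were not tested. Without tumor 5, a CV above 100% remained for 4 of the 23 in place of 9, against 0.438% of 11869 genes, and a 10-fold range for 5 in place of 11. The median CV of the set was then 69.8%, against 16.2% over those genes.

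**Figure D3:**
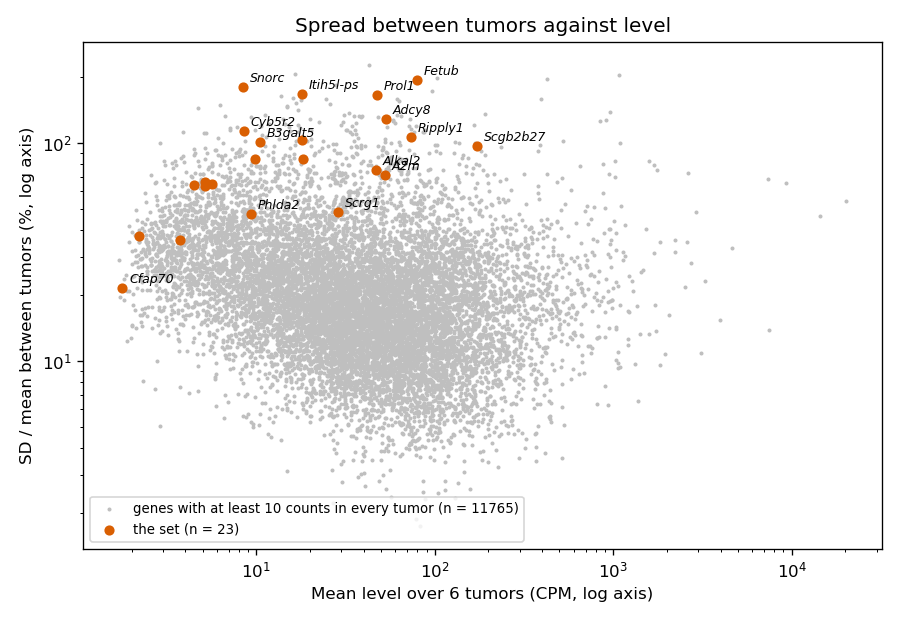
SD over mean between the 6 tumors (percent, log axis) against the mean tumor level (CPM, log axis) for the 11765 genes with at least 10 counts in each tumor (grey) and the 23 genes of the set (orange). Most of the set lies above the grey cloud at its own level, with Fetub (195%) at the top and Cfap70 (21.6%) at the lower left.

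No tumor was high for all of them. On the CPM scale, tumor 5 was the highest for 9 genes (39.1%, against 26.1% of the 11765), tumor 1 for 7 (30.4% against 19.5%) and tumor 6 for 4 (17.4% against 13.5%). Tumor 4 was the highest for Prol1 and A2m (8.70% against 9.98%), tumor 2 for Alkal2 (4.35% against 16.1%) and tumor 3 for 0 (against 14.7%). A2m had 100.8 CPM in tumor 4 and 97.98 in tumor 3, which had more raw counts. Tumor 5 was also the lowest for 5 of the 23, among them Ripply1, A2m, Scrg1 and Phlda2, beside 24.5% of the 11765. Tumor 6 was the lowest for 8 of the 23, beside 14.9% of the 11765. Tumor 5 had the most counts over the 23, 10220, of which 3218 were Scgb2b27, 3104 Fetub and 1500 Adcy8. Its skeletal muscle marker sum of 155 CPM was the highest of the tumors, and the part of this in the values of tumor 5 was not tested.

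Erbb2, the mouse gene for HER2, whose entry may also take reads of the transgene, was compared with each of the 23. It ranged from 14737 counts in tumor 4 to 138199 in tumor 3. None of the 23 followed it over the 6 tumors past an unadjusted p of 0.05 (exact permutation test over 720 pairings, two-sided, for Pearson's r and for Spearman's rho). The smallest p for r was 0.31, for Prol1 (r = -0.49, rho = -0.14, p for rho 0.80), and the smallest adjusted p over the 23 was 0.986 for r and 1 for rho. The correlation was positive for 12 of the 23. With tumors 3 and 4, the farthest from the median Erbb2 level, left out, it was positive for 19 over the other 4 tumors, up to 0.97 for Cyb5r2 and 0.96 for Slc10a5. The r of Prol1 changed from -0.49 to 0.87 and that of Alkal2 from 0.33 to -0.75, so the values rest on those tumors. A p as small as 0.00278 was possible with 6 tumors, and a miss at this size does not show that the levels are unrelated.

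Some relatives and neighbours of the genes were high in the same tumors and others were not. Scgb1b27, the partner secretoglobin 7.54 kb from Scgb2b27, had 0 benign counts and was read in tumor 5 (470 counts), tumor 1 (77) and tumor 4 (43), the same 3 tumors in which Scgb2b27 was high, with at most 1 count in the other 3. Ahsg, the fetuin A gene 18.9 kb from Fetub, had 174 counts in tumor 5 and between 5 and 16 in the others. Dcpp2 (7 to 40 counts) and Dcpp3 (1 to 18 counts) were both highest in tumor 5, like Dcpp1. Cldn2, a pore-forming claudin 18.5 kb from Ripply1, was higher in tumors (log2 fold change 8.43 ± 0.82 SE, adjusted p = 2.2e-06, edgeR). Cldn2 had 2 to 9 counts in benign samples and passed the low-count filter through the tumors, so its direction follows partly from the filter. Tumor 5, the lowest for Ripply1, was also the lowest for Cldn2, with 96 counts against at least 1172 elsewhere. Amtn, a gene of tooth enamel epithelium 47.3 kb from Prol1, had 90 counts in tumor 4, the tumor in which Prol1 was high, 24 in tumor 6 and at most 10 elsewhere. Other neighbours and relatives had another order. Mug1, a relative of A2m 159 kb from it, had 32 counts in tumor 5, the lowest tumor for A2m, and 0 in tumor 1. Scgb1c1 was highest in tumor 6 (22 counts), the lowest for Scgb2b27. Krt86, 5.14 kb from Krt83, had 26 counts in tumor 3 and at most 1 elsewhere, while Krt83 was highest in tumor 6. The pairs described here were chosen after their values were seen. Reads shared between near-identical copies cannot be told apart here for the Scgb and Dcpp genes.

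**Figure D4:**
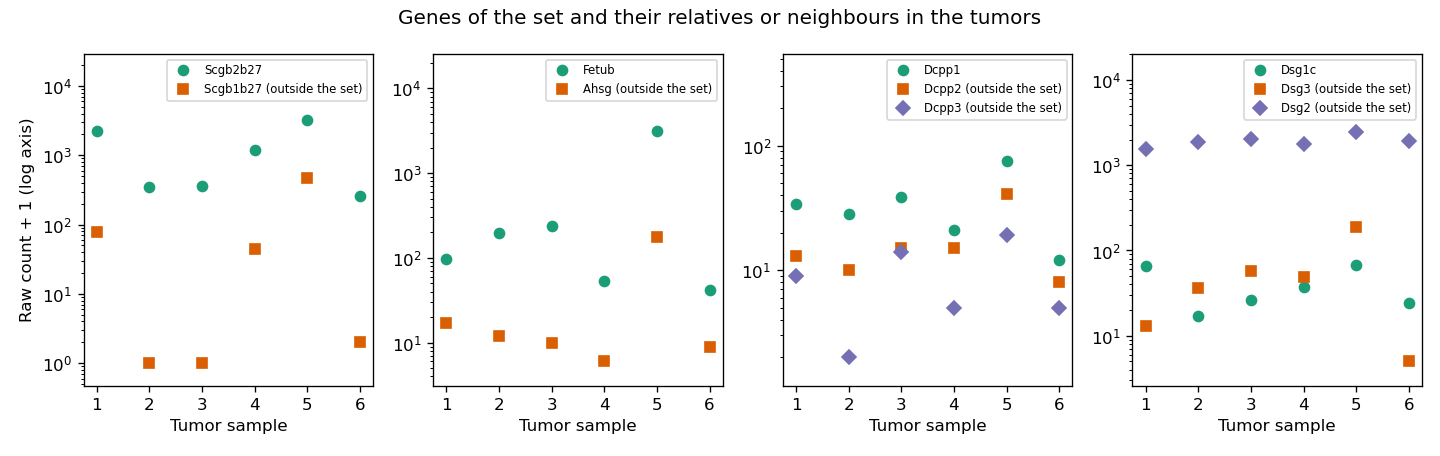
Raw count + 1 (log axis) in each of the 6 tumors for Scgb2b27 with Scgb1b27, Fetub with Ahsg, Dcpp1 with Dcpp2 and Dcpp3, and Dsg1c with Dsg3 and Dsg2. Symbols of the same tumor can be compared within a panel, as in tumor 5, where Scgb1b27 reaches 470, Ahsg 174 and Dcpp2 40 counts.

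Relatives taken by name stem went in both directions. Of the 47 relatives by gene name stem that were tested (120 in the table), 13 were higher and 21 lower (27.7% and 44.7%, beside 28.2% and 34.8% over all tested genes), with a median log2 fold change of -0.43, beside -0.06 over all genes tested. Among adenylyl cyclases, Adcy9 was higher (2.14 ± 0.29 SE, adjusted p = 3.6e-05) while Adcy3 (-3.62), Adcy4 (-4.16) and Adcy5 (-4.04) were lower, edgeR adjusted p at most 2.5e-06. Ripply3 was lower (-1.48 ± 0.25 SE, adjusted p = 0.00024), as were Itih5 (-5.21, adjusted p = 6.8e-10) and B3galt2 (-7.95, adjusted p = 2.8e-08). Phlda1 was higher (2.21 ± 0.38 SE, adjusted p = 0.00029) and Phlda3 lower (-3.93 ± 0.30 SE, adjusted p = 2.2e-07). Among the desmosomal relatives of Dsg1c, Dsg2 was higher (2.40 ± 0.29 SE, adjusted p = 1.6e-05), and Dsg3 had 0 benign counts and between 4 counts in tumor 6 and 188 in tumor 5. Dsg1b had 0 counts in every tumor, and Dsg1a had 19 in tumor 3 and 0 in the others, and both had a few counts in benign tissue. Of the 44 nearest genes in the table on either side of the 22 genes with a position, 30 were tested, 18 were higher and 7 lower (60% and 23.3%, beside 28.2% and 34.8% over all tested genes), with a median log2 fold change of 0.48. These nearest genes lay between 0.295 kb (Impa1, from Slc10a5) and 2856 kb (Gramd1a, from Scgb2b27) away, so many were not close. Their share was not tested further.

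Other genes of normal tissues were followed with 12 lists of tissue genes, leaving out the 23. Genes of the set were in the exocrine (3), liver (1), cartilage (1) and somite (1) lists only. The other lists held none of the 23, and the totals below include them. Of 65 tested list genes, 19 were higher and 31 lower in tumors (29.2% and 47.7%, beside 28.2% and 34.8% over all tested genes), with a median log2 fold change of -1.0. The lists differed in direction. A gene near 0 in 1 group passed the low-count filter mainly through the other group, so its direction follows partly from the filter. Car6 (0 to 21 counts in benign samples) and Comp (4 to 22), named below, were of this kind. The exocrine list had 22 genes in the table, 3 of them in the set, and only 6 of the others were tested. Of 6 exocrine gland genes, 5 were higher and 1 lower (median 4.96), led by Car6, a secreted carbonic anhydrase of saliva (7.70 ± 0.99 SE, adjusted p = 2.5e-05), the water channel Aqp5 (6.92 ± 0.43 SE, adjusted p = 4.1e-08) and Bhlha15, a transcription factor of secretory cells (5.62 ± 0.41 SE, adjusted p = 1.8e-07). Of 12 cartilage, bone and tooth genes, 9 were higher and 1 lower (median 2.50), among them Col11a1 (6.78 ± 0.48 SE), Col9a1 (6.58 ± 0.41 SE) and Comp (8.02 ± 1.26 SE), which had 16754 counts in tumor 5 and between 375 and 900 in the others. The collagen of cartilage Col2a1 had 379 counts in tumor 4 and at most 22 in other tumors. The cartilage proteoglycan Acan had 46 in tumor 4 and at most 11 in other tumors, so neither was highest where Comp was. Col11a1 lay between 722 and 1685 CPM and Col9a1 between 962 and 1659 CPM over the tumors, and both were thus high in every tumor.

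Liver, nerve and somite lists went mostly the other way. Of 13 liver genes, 9 were lower and 1 higher (median -3.98), the 1 being Trf, the iron carrier transferrin that mammary epithelium also makes (3.69 ± 0.40 SE, adjusted p = 5.1e-06). Without tumor 1 or without tumor 5, 3 liver genes were called higher, and 2 without tumor 6 or benign sample 2. Of 6 neuronal genes 5 were lower (median -4.02) and Cplx2 was higher (2.30 ± 0.28 SE, adjusted p = 1.7e-05), and 2 were called higher without tumor 2 or tumor 5 and without any of benign samples 2 to 6. Of 11 somite and patterning genes 8 were lower, and Eya1 was higher (2.56 ± 1.18 SE, adjusted p = 0.08). Eya1 had 1099 counts in tumor 6, 336 in tumor 1 and 122 in tumor 4, the 3 tumors with the most Ripply1, and at most 21 in the others, while benign samples had 6 to 86. Its call was lost in 7 of the 12 fits that left out 1 sample, those without tumor 1 or tumor 6 and without any of benign samples 1 to 5, and with the replicate number as a block (adjusted p = 0.43, edgeR). The other lists had few tested genes. Sbsn of the cornified epidermis (0.56 ± 0.26 SE, adjusted p = 0.086, not called in 6 of those 12 fits) and Atp6v1b1 of the kidney (2.95 ± 0.24 SE, adjusted p = 3.5e-07) were higher, and 0 genes of the testis (3 tested), stomach and intestine (1), placenta (2), lung (5) and male accessory gland (1) lists were called higher by edgeR.

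**Figure D5:**
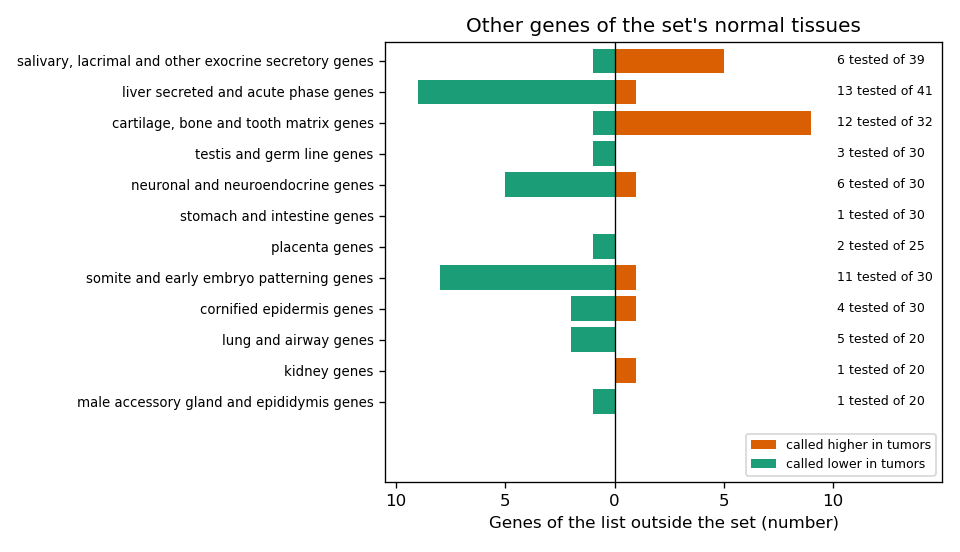
Number of genes called higher (orange, right) or lower (green, left) in tumors for the 12 lists of tissue genes without the 23 genes of the set, with the number tested of the number listed at the right. The exocrine list has 5 higher of 6 tested and the cartilage list 9 of 12, while the liver list has 9 lower of 13.

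Other cell types were read beside these results. Sums of macrophage, endothelial and fibroblast markers had a highest value of 738, 115 and 1244 CPM in tumors, against a lowest of 650, 670 and 5187 CPM in benign tissue. Nerve and Schwann markers summed to between 1010 and 1354 CPM in tumors and between 360 and 538 CPM in benign tissue. Sox10 alone made up most of the tumor sums, with 842 to 1133 CPM in tumors and 37.8 to 230 CPM in benign tissue. The higher sum is thus not a rise of the markers as a group. Of 8 tested, 3 were lower (median log2 fold change -0.36) and 2 higher, Sox10 (2.98 ± 0.36 SE, adjusted p = 1.4e-05, edgeR) and S100b (1.68 ± 0.45 SE, adjusted p = 0.0066, edgeR). Mast, B and plasma and neutrophil marker sums were at most 8.91 CPM in every tumor. The part of these cells in the levels of the 23 genes was not tested.

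Values of the genes at the limits show how the cutoffs fell. Just inside the benign limit were Cyb5r2 and B3galt5 with 12 counts and Adcy8 with 11, and just outside it Slc6a2 and Psapl1 with 13. Inside the tumor limit were Snorc and Itih5l-ps with 10 counts in the lowest tumor and Cfap70 with 11, and outside it Mast1 and Slc3a1 with 9 and Smr2 with 8. Smr2, a salivary gland gene with 0 benign counts, had 819 counts in tumor 6 and 164 in tumor 1, and it missed the set through tumors 2 and 5 with 8 counts each and tumor 3 with 9. In the reverse direction, 162 genes had at most 12 counts over the tumors and at least 10 in each benign sample.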

How the data were processed

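RNA of 6 tumors and 6 benign mammary samples was sequenced from poly A selected, strand-specific libraries. Per the labels and methods, the authors trimmed reads (Trim Galore), quantified transcripts with Salmon against mm10 and ran DESeq2. They deposited an estimated count per gene as whole numbers, unscaled, so no rounding was needed. The versions and the annotation are not given in the sources used here. Groups follow the labels. The labels do not tie the samples of a group to separate mice, so p-values measure the spread between samples. Replicates differed by more than counting noise (smallest chi-square per degree of freedom 12.5 for benign and 16.4 for tumor samples).

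From the deposited counts, edgeR 4.0.16 in R 4.3.3 filtered genes (filterByExpr, minimum count 10, minimum total 15), scaled them by TMM and fitted the quasi-likelihood test on all 13191 genes (two-sided, Benjamini-Hochberg, threshold 0.1, common biological coefficient of variation 0.351). In simulated counts of 13135 genes for this comparison, it recovered 62% of 2-fold and 100% of 4-fold changes, and 5.26% of calls were false. DESeq2, used below as an alternative, recovered 63% and 100% in the same simulation, and 23.8% of its calls were false. The simulation changed 200 genes, as many up as down, with the same dispersion for every gene. The data had far more calls and uneven spread between genes, so these rates may not hold for them. log2 levels in plots added 0.5 CPM. Ratios with a benign count carry an exact 95% interval for counting error only. Ratios without one use a floor of 3 counts over the benign group. The CV is SD over mean of CPM. Correlations used exact permutation (scipy 1.17.1). Positions come from GENCODE M21 (GRCm38), which gave 22 of 23 genes a position, and promoters from RefSeq (GRCm38.p6, 15 of 23 matched). Sequence of the other 8 was not used here.

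Values of 1 gene of the set and of 1 gene at its limits are not reported here, though counts, sums and medians over the 23 include the first. The 23 genes, their grouping by function, the tissue and marker lists and the name stems were chosen with earlier results of these data known. Named with values were A2m and Scgb2b27, the 10 genes of the set with the highest mean, the 5 most and 5 least variable, those in a tissue list, genes at the limits, relatives, and the top 3 called genes of each list. The other genes of the set, and Amtn, Cldn2, Col2a1 and Acan, were described after their values were seen. Alternatives were DESeq2 1.42.0, other scaling, filters and thresholds, a replicate block, other limits for the set and leaving out each sample. The counts of widely varying genes without each tumor were added after seeing the data. The same replicate number in both groups marks no shared mouse, since the methods state different mice.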

Additional observations from a re-analysis of the deposited data

Results flagged for a closer look

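In each of 22 genes of the set and Erbb2, the 6 tumors were checked for 1 sample far from the others (Dixon's 95% limit). Of the 23 groups 7 were flagged, and 5 of the 7 were tumor 5. The limit flags about 5% of groups when values are normally distributed, which was not checked for these CPM. The share flagged over all genes was not determined, so 7 of 23 is a description and was not tested. In tumor 5, Fetub reached 397 CPM (next tumor 28.8), Adcy8 192 CPM (39.9), Itih5l-ps 79.8 CPM (10.5), Snorc 39.5 CPM (3.03) and B3galt5 30.3 CPM (11.3). In tumor 4, Prol1 reached 207 CPM against 28.3 CPM in the next tumor. In tumor 1, Cyb5r2 stood at 27.7 CPM (8.45 in the next). In each of the 7 the sample apart was the highest. CPM cannot be negative, and genes of the set had to have at least 10 counts in each tumor. A low sample apart thus had less room than a high one. The direction follows partly from the scale and the limit, and it was not tested.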

How the results depend on the processing

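The size of the set followed its limits. It held 14 genes with at most 6 benign counts, 45 with at most 24, 43 with at least 5 counts in each tumor and 11 with at least 20, and 16 with both limits on CPM, of which 15 were shared. Leaving out 1 sample gave 24 to 31 genes, and since it can only relax the limits the 23 had to stay. The median CV was 69.8% to 85.2% with 1 tumor left out. A CV above 100% was found for 4 to 9 genes and a 10-fold range for 5 to 11, and both were lowest without tumor 5. For the tissue lists, 55 genes were called higher and 72 lower when every gene with a count was kept, 43 and 59 with DESeq2, and 5 lower with at least 10 counts in every sample, where fewer genes were tested. The exocrine list had 15, 13 and 3 called higher under these settings. For the relatives the counts were 27 and 38, 21 and 33, and 7 lower.

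The replicate numbers paired no samples (correlations of deviations -0.12 to 0.11 for the 6 numbers). With the number as a replicate block, 3473 genes were called higher and 4237 lower, the tissue lists had 18 and 33, the relatives 13 and 20, and Eya1 lost its call. Genes with few counts per tumor, such as Cfap70 (11 to 15), Vwc2 (11 to 25) and Veph1 (17 to 44), are limited by depth.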
